A study of Rattus norvegicus with 36 samples.

Results

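The circadian clock genes described here are 6 messenger RNAs measured in the nucleus accumbens of the rat, *Per1* (ENSRNOG00000007387), *Per2* (ENSRNOG00000020254), *Dbp* (ENSRNOG00000021027), *Nr1d1* (ENSRNOG00000009329), *Arntl* (ENSRNOG00000014448) and *Clock* (ENSRNOG00000002175). They were chosen by identifier as known parts of the molecular clock, without use of a measured value, and are 6 of 32402 genes listed. All 6 passed the filter on low counts, as did 15555 genes in all. The files carry identifiers alone, and the symbols come from the definition of the gene set.

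The animals were Sprague-Dawley rats, 8 weeks old, that went through conditioned place preference, in which an animal learns to link a compartment with a drug. Saline rats received 4 injections of physiological serum, 15 days of withdrawal and 1 further serum injection. CPPE and nCPPE rats received 4 cocaine injections, given 1 per day, the same withdrawal and a final cocaine injection of 5 mg/kg. CPPE rats expressed the preference, and the labels also call them dependent. nCPPE rats did not express it, and the labels call them non-dependent. All rats were placed in the apparatus for an 18 min test right after the last injection, and the series text gives an extinction phase of 12 days. There were 3 rats in each group and 4 technical replicates of each rat, 36 libraries in all. The time of day of conditioning, of the test and of tissue collection, the lighting schedule, the sex of the rats and the criterion that parted CPPE from nCPPE are absent from the labels, as is the dose of the conditioning injections of cocaine. The nucleus accumbens is the labelled tissue, while the extraction text also names the caudate putamen. The tissue was not checked against marker genes, because no table used here pairs the identifiers with names.

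CLOCK and BMAL1, the product of *Arntl*, form a dimer that binds E-box sequences and switches on *Per1*, *Per2*, *Nr1d1* and *Dbp*. PER proteins, with their CRY partners, return to inhibit that dimer, and REV-ERB alpha, the product of *Nr1d1*, represses *Arntl* through ROR elements, so that *Arntl* and the E-box targets peak at different times of day. DBP is a transcription factor that carries the rhythm to D-box genes and is a commonly used readout of clock phase. *Per1* also responds to neuronal activity through cAMP response elements. Clock genes are expressed in the striatum, where they have been studied in relation to cocaine reward.

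The promoters of *Dbp* and *Arntl* are shown because theirs was the one pair of clock genes whose levels passed the test of correlation over the 8 rats other than Saline 2, a library that stood apart. Over all 9 rats no pair passed. Both run from 250 bases before to 50 bases after the annotated start, from RefSeq, build GRCr8, *Dbp* at chr1:105312006-105312305 and *Arntl*, there named *Bmal1*, at chr1:176766078-176766377, both on the plus strand. Capitals mark the letters AGGTCA, the core of a ROR and REV-ERB element.

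Dbp: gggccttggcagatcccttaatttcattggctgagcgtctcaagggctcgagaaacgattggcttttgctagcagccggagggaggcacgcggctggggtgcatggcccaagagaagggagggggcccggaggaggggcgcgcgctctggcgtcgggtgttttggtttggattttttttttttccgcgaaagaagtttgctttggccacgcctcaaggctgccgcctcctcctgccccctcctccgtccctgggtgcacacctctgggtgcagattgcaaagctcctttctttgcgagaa

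Arntl: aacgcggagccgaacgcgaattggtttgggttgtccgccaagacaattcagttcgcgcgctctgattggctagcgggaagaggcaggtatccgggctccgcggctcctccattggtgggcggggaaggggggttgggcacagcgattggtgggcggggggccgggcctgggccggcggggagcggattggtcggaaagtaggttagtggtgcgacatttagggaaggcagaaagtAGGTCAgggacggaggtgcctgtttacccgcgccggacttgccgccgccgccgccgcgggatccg

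The *Arntl* match begins 15 bases before the start. Each promoter of the 6 genes, 8 in all since *Nr1d1* and *Clock* have 2 each, was searched on both strands for CACGTG (E-box), TTANGTAA (D-box), AGGTCA and TGACGTCA (cAMP response element). Among 33469 promoters of the same length these letters were found in 6.42%, 2.24%, 16.2% and 1.83%. *Per2* held a D-box that begins 192 bases before its start, and the second *Nr1d1* promoter an E-box that begins 191 bases before its start. No other match was found in these windows, which says only that the letters are not there. The 60 bases around both matches are shown, with the match in capitals, at chr9:99497152-99497211 for *Per2* and chr10:84229613-84229672 for *Nr1d1*, GRCr8, on the minus strand.

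Per2: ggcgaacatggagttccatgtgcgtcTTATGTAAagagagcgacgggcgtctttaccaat

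Nr1d1: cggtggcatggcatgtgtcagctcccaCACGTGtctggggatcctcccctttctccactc

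Library totals were 27724289 to 39067715 counts per rat. One library, Saline 2, stood apart from the rest. Levels are given as CPM, counts scaled to a common library total after TMM (trimmed mean of M values) correction of that total. Among the 13767 genes that averaged 1 CPM or more, 1120 were over 2-fold above and 2570 over 2-fold below the mean of the 8 other rats in Saline 2, together 26.8%. It also had the fewest genes detected, 18351 beside 19023 to 19319. Each comparison with Saline is therefore given with and without this rat. In tissue RNA, fewer cells of a type and less RNA per cell cannot be told apart.

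Counts of the clock genes were high enough that counting error was small. A single technical replicate held 197 to 2104 counts of a clock gene. The coefficient of variation of CPM between the 4 technical replicates of a rat was 0.460% to 5.84%, with a median of 3.11%. In 54 chi-square tests of technical replicates, 1 had an unadjusted p below 0.05 and the smallest adjusted p was 0.997, a spread within counting noise, and the counts of a rat were added up.

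Among the repressor genes of the loop, *Per1* was at 117, 98.8 and 90.8 CPM in Saline 1 to 3, at 97.8, 130.5 and 98.4 CPM in CPPE 1 to 3, and at 97.8, 101 and 100.3 CPM in nCPPE 1 to 3. CPPE 2 and Saline 1 were the high rats, the other 7 lay within 90.8 to 101 CPM, and all 3 groups overlapped. *Per2*, the paralog that acts in the same inhibitory complex, was at 54.2, 29.1 and 59.9 CPM in Saline, 58.9, 68.0 and 58.5 CPM in the CPPE rats, and 61.5, 57.7 and 53.6 CPM in nCPPE rats. Saline 2 had the lowest value and CPPE 2 the highest, and the other 7 rats spanned 53.6 to 61.5 CPM.

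*Nr1d1*, whose product represses *Arntl*, was at 78.7, 122 and 70.6 CPM in Saline, 83.1, 87.2 and 87.8 CPM in the CPPE rats, and 77.8, 68.4 and 78.8 CPM in nCPPE rats. Every CPPE rat lay above every nCPPE rat, and the Saline rats lay on both sides of the CPPE rats. *Dbp*, the output factor, was at 126, 297 and 120.0 CPM in Saline, 158, 138 and 152 CPM in the CPPE rats, and 153, 144 and 173 CPM in nCPPE rats. Saline 2 had by far the most *Dbp*, while Saline 1 and Saline 3 had the least, so that the 6 cocaine rats lay between them.

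The activators varied least among the 8 rats other than Saline 2, though not over all 9. *Arntl* was at 47.9, 43.9 and 47.6 CPM in Saline, 43.0, 45.8 and 44.6 CPM in the CPPE rats, and 45.3, 46.1 and 39.3 CPM in nCPPE rats. The lowest value was that of nCPPE 3, the rat with the most *Dbp* among the cocaine rats. *Clock*, the partner of BMAL1, was at 119.6, 46.0 and 120.1 CPM in Saline, 106, 109.9 and 109 CPM in the CPPE rats, and 115, 99.9 and 115 CPM in nCPPE rats. Saline 2 had less than any other rat by a wide margin, and the other Saline rats had the most.

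**Figure D1:**
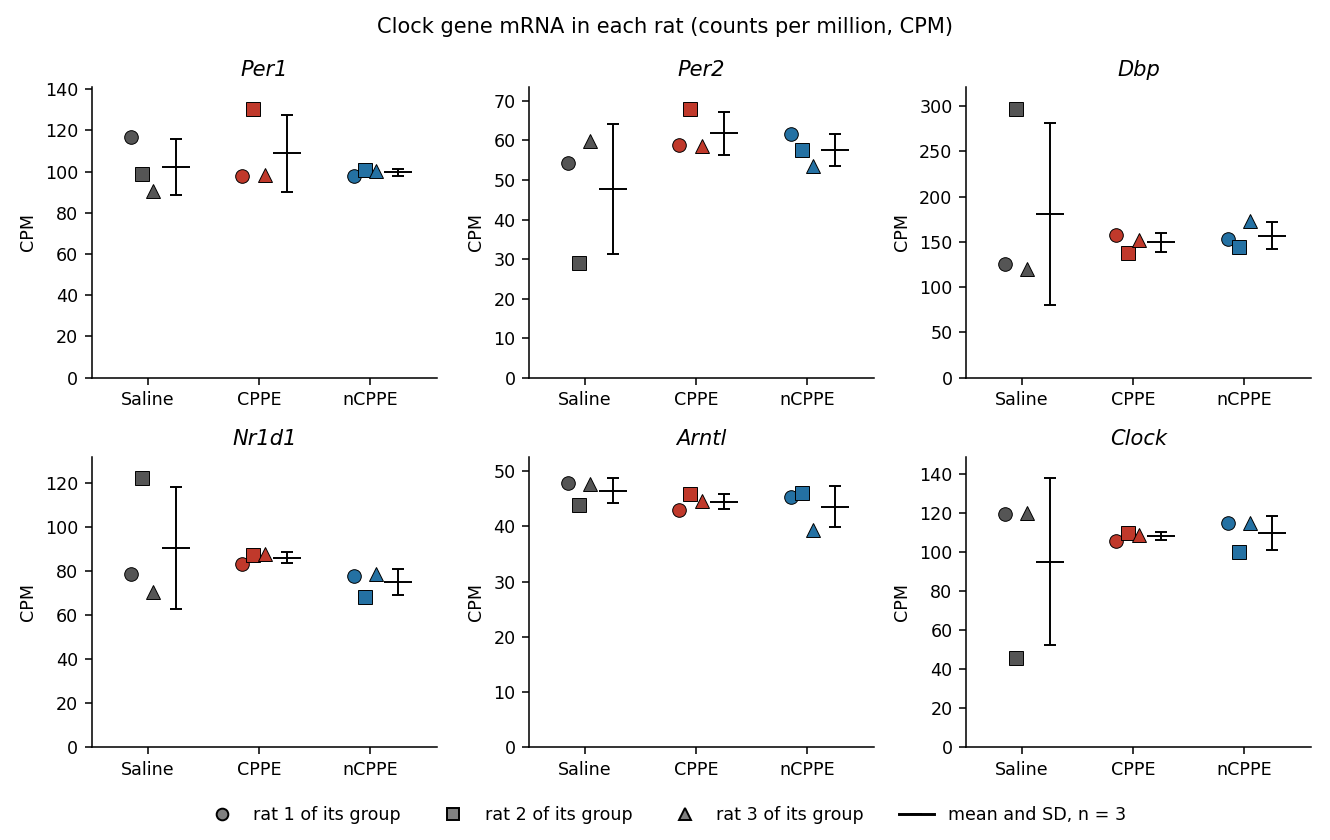
Level of each clock gene in every rat, in CPM (linear axis from 0), by group; symbols give the rat's number within its group, and the bar beside them the mean and SD of 3 rats. The square of the Saline group, Saline 2, lies away from its group for *Per2* (29.1 CPM), *Dbp* (297 CPM), *Nr1d1* (122 CPM) and *Clock* (46.0 CPM).

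Without Saline 2 the clock genes varied between rats about as much as other genes did. The highest of the 8 rats exceeded the lowest 1.44-fold for *Per1* and *Dbp*, 1.28-fold for *Nr1d1*, 1.27-fold for *Per2*, 1.22-fold for *Arntl* and 1.20-fold for *Clock*. The SD of log2 CPM over these rats was 0.174 for *Dbp* and 0.169 for *Per1*, at percentiles 68.0 and 66.4 of all genes averaging 1 CPM or more, whose median SD was 0.130. It was 0.130 for *Nr1d1* (percentile 50.0), 0.108 for *Per2* (37.7), 0.0918 for *Arntl* (27.1) and 0.0901 for *Clock* (26.0). Over these 8 rats *Dbp* and *Per1* had the widest spread and both activators the narrowest. That order depended on Saline 2. Over all 9 rats the SD was widest for *Clock*, at 0.433 (percentile 78.4), then 0.382 for *Dbp* (71.7), 0.354 for *Per2* (67.0), 0.242 for *Nr1d1* (42.7), 0.160 for *Per1* (21.6) and 0.0865 for *Arntl* (4.58), beside a median of 0.272 over genes. *Arntl* was thus among the least variable genes with that library included.

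Saline 2 departed from the other rats in a gene-specific way. Set against the mean log2 CPM of the 8 others, its *Clock* was 2.42-fold and its *Per2* 2.02-fold lower, its *Dbp* 2.05-fold and its *Nr1d1* 1.54-fold higher. *Per1* and *Arntl* in Saline 2 differed from that mean by only -0.07 and -0.03 on the log2 scale, within the range of the other rats. Departures of this size were not rare in that library. Of all genes at that level, 7.14% were raised as much as *Dbp* or more, 22.8% as much as *Nr1d1*, 13.9% lowered as much as *Clock* and 18.3% as much as *Per2*. The part that the general difference of this library plays in its clock gene levels was not tested.

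**Figure D2:**
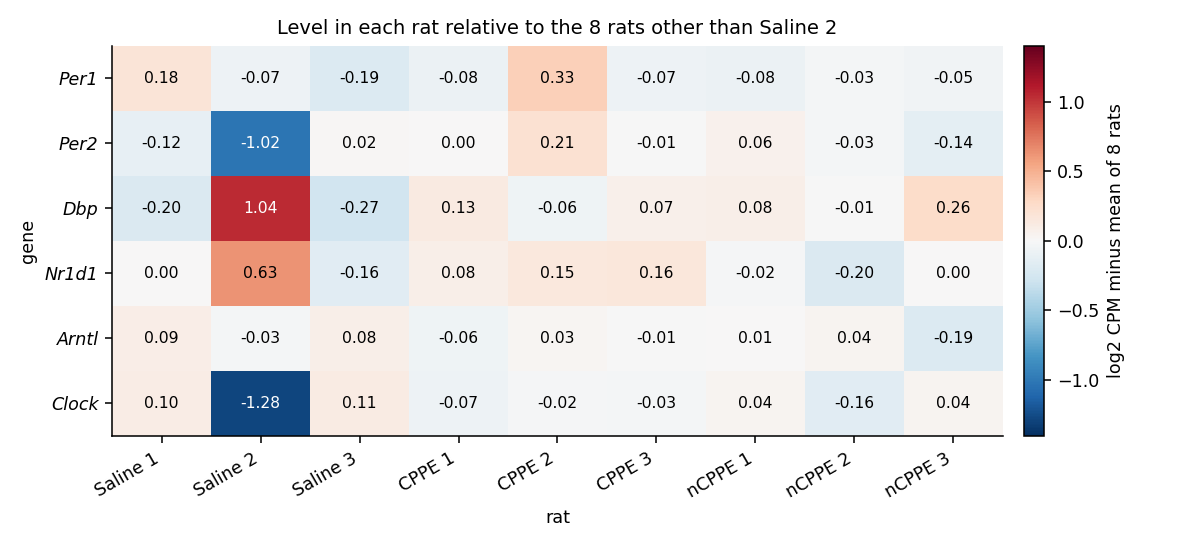
Log2 CPM of each clock gene (rows) in each rat (columns) minus the mean of the 8 rats other than Saline 2; red is above and blue below that mean, and the numbers are the plotted values. Saline 2 reads 1.04 for *Dbp* and -1.28 for *Clock*, while its *Per1* (-0.07) and *Arntl* (-0.03) are close to 0.

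CPPE was compared with nCPPE because both received the same cocaine injections and differed in whether the preference was expressed. None of the 6 was called, and the differences were small. *Nr1d1* had the largest, 86.0 ± 2.54 CPM in the CPPE rats and 75.0 ± 5.73 CPM in nCPPE (SD, n = 3 rats in either group). On the log2 scale that was 0.20 ± 0.19 (SE). It was the one clock gene whose groups did not overlap, beside 8.49% of all tested genes. *Per1* averaged 109 ± 18.7 and 99.8 ± 1.79 CPM, a log2 difference of 0.13 ± 0.15 that went to -0.02 without CPPE 2. *Per2* differed by 0.10 ± 0.24, *Dbp* by -0.07 ± 0.32, *Arntl* by 0.03 ± 0.11 and *Clock* by -0.02 ± 0.31 on the log2 scale. Of the 6 differences 4 were above 0, and the median of all 6 was 0.07. Among all tested genes 49.6% were above 0, with a median of 0.00.

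By edgeR's quasi-likelihood test with Benjamini-Hochberg adjustment over all 15555 genes, an adjusted p below 0.05 was reached by 0 of 6 clock genes and 0 genes in all (0%), with 84 genes at an unadjusted p below 0.05 (0.540%) and no clock gene among them. DESeq2 called 1 gene and limma-voom 0, neither a clock gene. The edgeR adjusted p was 1.00 for each clock gene, and the adjusted p was 0.971 to 1.00 over 16 alternative fits by edgeR, DESeq2 or limma. The 95% intervals held *Per1* within 0.861- to 1.38-fold, *Arntl* within 0.856- to 1.22-fold and *Nr1d1* within 0.844- to 1.56-fold, and *Clock*, the widest in this comparison beside *Dbp*, within 0.608- to 1.60-fold. Saline 2 enters these intervals through the spread that all groups share. Without it the *Nr1d1* difference was again 0.20, with an SE of 0.07, an interval of 0.03 to 0.36, an unadjusted p of 0.0228 and an edgeR adjusted p of 0.971, in a fit where 3.53% of genes had an unadjusted p below 0.05.

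**Figure D3:**
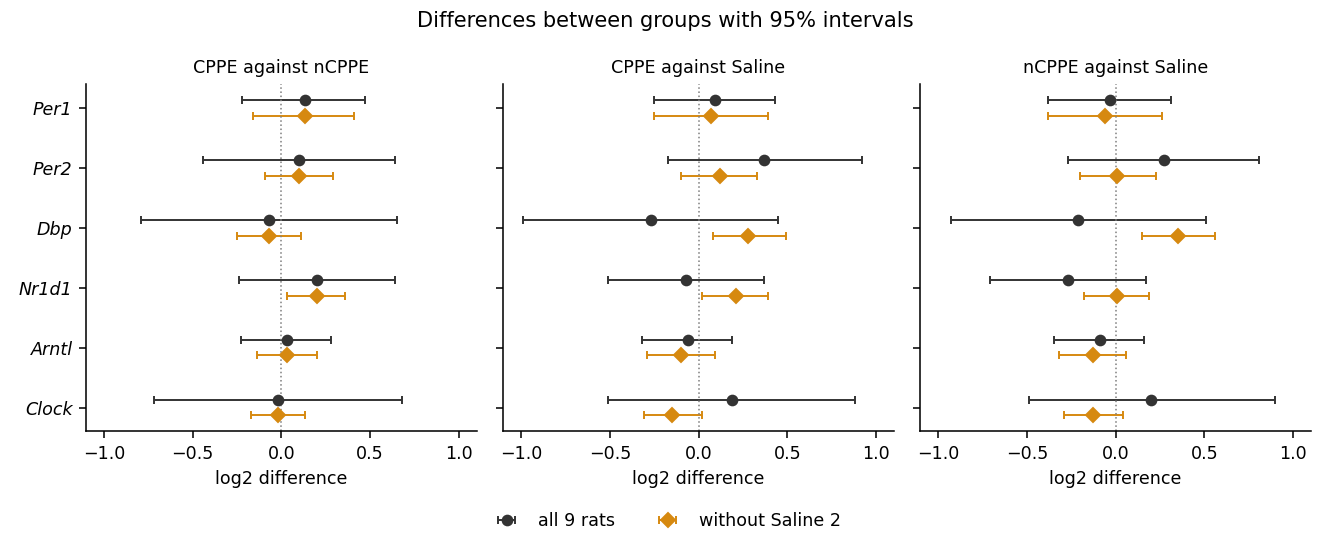
Log2 difference of each clock gene in 3 comparisons (panels), as edgeR estimates with 95% intervals, from all 9 rats (dark circles) and without Saline 2 (orange diamonds); the dotted line is no difference. Without Saline 2 the intervals narrow, and *Dbp* moves from -0.27 to 0.28 against Saline in CPPE and from -0.21 to 0.35 in nCPPE.

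CPPE and nCPPE rats were each compared with the same 3 Saline rats, so these comparisons are not independent of each other. With all rats no clock gene was called against Saline, and each clock gene overlapped between Saline and either cocaine group. *Per2* averaged 47.7 ± 16.4 CPM in Saline (SD, n = 3), 61.8 ± 5.40 CPM in the CPPE rats and 57.6 ± 3.95 CPM in nCPPE rats, log2 differences of 0.37 ± 0.24 and 0.27 ± 0.24 (SE). Without Saline 2 they were 0.12 and 0.01. *Dbp* averaged 181 ± 100.3 CPM in Saline, 149.5 ± 10.1 CPM in the CPPE rats and 157 ± 14.8 CPM in nCPPE rats, and *Clock* 95.3 ± 42.6, 108 ± 2.08 and 109.8 ± 8.52 CPM. *Nr1d1* averaged 90.3 ± 27.5, 86.0 ± 2.54 and 75.0 ± 5.73 CPM, log2 differences of -0.07 ± 0.19 in CPPE and -0.27 ± 0.20 in nCPPE rats. For *Dbp*, *Clock* and *Nr1d1* the sign of the difference turned when Saline 2 was left out.

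Without Saline 2, *Dbp* was at 120.0 and 126 CPM in the remaining Saline rats and at 138 to 173 CPM in the 6 cocaine rats. Its log2 difference was 0.28 ± 0.09 (SE) in CPPE and 0.35 ± 0.09 in nCPPE rats, with unadjusted p of 0.0118 and 0.00359 and edgeR adjusted p of 0.825 and 0.787. *Clock* was at 119.6 and 120.1 CPM in those Saline rats and at 99.9 to 115 CPM in the cocaine rats, log2 differences of -0.15 ± 0.07 and -0.13 ± 0.07. *Arntl* was at 47.6 and 47.9 CPM against 39.3 to 46.1 CPM, differences of -0.10 ± 0.08 and -0.13 ± 0.08. *Nr1d1* differed by 0.21 ± 0.08 in CPPE, with an unadjusted p of 0.0324 and an edgeR adjusted p of 0.825, and by 0.01 ± 0.08 in nCPPE rats. In these fits 5.90% of genes for CPPE and 6.12% for nCPPE had an unadjusted p below 0.05. None passed the threshold, and only 2 Saline rats stand behind these values.

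Counts of clock genes without overlap went from 0 of 6 with all rats to 4 of 6 for CPPE against Saline and 3 of 6 for nCPPE against Saline when Saline 2 was left out. Over all tested genes that share went from 5.72% to 25.3% and from 4.02% to 24.8%. With 2 Saline rats such separation was common throughout the transcriptome. With all rats edgeR called 0 of 6 clock genes and 0 genes in all in either comparison (0%), and an unadjusted p below 0.05 was found for 139 (0.894%) and 179 (1.15%) genes, none a clock gene. DESeq2 called 0 and 1 genes and limma-voom 0 and 0, again none a clock gene. The edgeR adjusted p of the clock genes with all rats was 0.882 to 0.932 for CPPE and 0.937 to 0.964 for nCPPE. Over the alternative fits by edgeR, DESeq2 or limma it was 0.534 to 0.986 for CPPE and 0.570 to 1.00 for nCPPE.

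Taking CPPE and nCPPE together as 6 cocaine rats against Saline gave log2 differences of 0.32 ± 0.21 (SE) for *Per2*, 0.19 ± 0.27 for *Clock*, 0.03 ± 0.13 for *Per1*, -0.08 ± 0.10 for *Arntl*, -0.17 ± 0.17 for *Nr1d1* and -0.24 ± 0.27 for *Dbp*. The median over the 6 genes was -0.02, beside -0.01 over all tested genes. edgeR called 0 of 6 and 0 genes in all (0%), with 193 genes (1.24%) at an unadjusted p below 0.05, and the adjusted p of the clock genes was 0.825 to 0.940. DESeq2 called 1 gene, not a clock gene, and limma-voom 0. Without Saline 2 *Dbp* differed by 0.32 ± 0.08, with an unadjusted p of 0.00360 and an edgeR adjusted p of 0.699. In that fit 6.70% of genes had an unadjusted p below 0.05. *Dbp*, *Arntl* and *Clock* then showed no overlap, 3 of 6 beside 11.4% of all tested genes, where with all rats it was 0 of 6 beside 1.03%. These are the values of the pairwise comparisons again, not further observations.

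The levels of the clock genes within a rat were set against each other as the mean log2 CPM of *Per1*, *Per2*, *Dbp* and *Nr1d1* minus that of *Arntl* and *Clock*. This output-to-activator difference was 0.23, 1.16 and 0.12 in Saline 1 to 3, 0.47, 0.52 and 0.42 in CPPE 1 to 3, and 0.35, 0.36 and 0.46 in nCPPE 1 to 3. The cocaine rats lay close together, between Saline 1 and Saline 3 below and Saline 2 above. The genes averaged together went different ways in Saline 2. Against the mean of the 8 other rats, its *Per1* was at -0.07, *Per2* at -1.02, *Dbp* at 1.04 and *Nr1d1* at 0.63 on the log2 scale. *Arntl* was at -0.03 and *Clock* at -1.28. Saline 1 and Saline 3 stayed below every cocaine rat with library totals alone, with a prior count of 0.5 and with any 1 of the 6 genes left out. The narrowest margins were those without *Clock*, 0.89 in Saline 1 beside 0.92 in the lowest cocaine rat, and without *Dbp*, 0.07 beside 0.11. Saline 2 stayed above the cocaine rats except without *Clock*, where it was at 1.20 and the highest cocaine rat at 1.23. Only 2 Saline rats stand behind the position below the cocaine rats, and with Saline 2 the groups overlapped. The difference is built in part from *Dbp*, *Arntl* and *Clock*. Those genes were themselves free of overlap without Saline 2, as were 11.4% of all tested genes, so it is not a further observation.

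Across the 8 rats other than Saline 2, *Dbp* and *Arntl* varied in opposite directions. Pearson's r of log2 CPM was -0.899 (exact permutation p = 9.67e-04, adjusted p = 0.0145) and Spearman's rho -0.929 (exact permutation p = 0.00223, adjusted p = 0.0335), two-sided, over all 40320 pairings of the 8 values and with adjustment over 15 pairs of clock genes. From the least to the most *Dbp*, the 8 rats went from Saline 3 (120.0 CPM of *Dbp*, 47.6 CPM of *Arntl*) to nCPPE 3 (173 and 39.3 CPM). The pairings were made without regard to group. For deviations from the group means r was -0.904, a value given with no test. Without Saline 1 and Saline 3, the rats farthest from the median of *Dbp*, r was -0.930 over 6 rats, which did not pass the threshold (exact permutation, adjusted p = 0.0833).

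Within these 8 rats the size of r was steady, while its side of the threshold was not. With each of the 8 rats left out in turn r was -0.93 to -0.88. The adjusted p was then 0.0149 to 0.176, and above 0.05 without Saline 1 (0.176), Saline 3 (0.0565), CPPE 2 (0.0685) or nCPPE 3 (0.0595). With Saline 2 included r was -0.489 (exact permutation, adjusted p = 0.359), and this rat had 297 CPM of *Dbp* with 43.9 CPM of *Arntl*. *Arntl* spanned 1.22-fold over the 8 rats, beside a counting error of 2.35% to 2.85% of its level per rat. Of 13766 genes other than *Dbp* averaging 1 CPM or more, 19 (0.138%) had an r with *Dbp* as low as that of *Arntl* or lower over the same rats. *Arntl* itself is counted among the 19. The pair was picked for its r over these same rats, so a low share follows in part from that choice and carries no test.

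**Figure D4:**
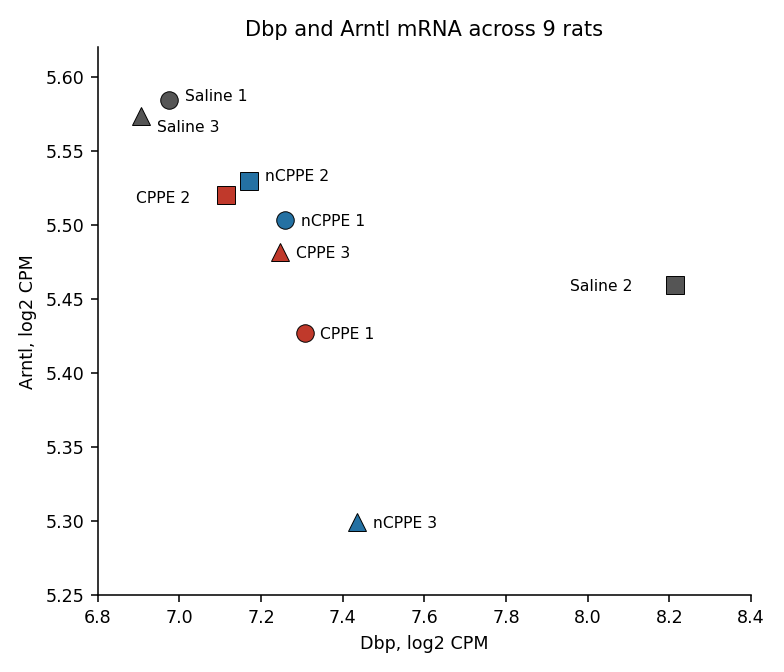
*Dbp* against *Arntl* in log2 CPM, 1 point per rat, with colour for the group and symbol for the rat's number. The 8 rats other than Saline 2 run from high *Arntl* with low *Dbp* (Saline 1 and Saline 3) to low *Arntl* with high *Dbp* (nCPPE 3), and Saline 2 lies apart at 8.21 on the *Dbp* axis.

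The other 14 pairs of clock genes did not pass the threshold over the 8 rats. Their adjusted exact permutation p for r was 0.805 or more. r was 0.361 for the paralogs *Per1* and *Per2*, and -0.495 without Saline 1 and CPPE 2. With CPPE 2 alone left out it was -0.675, and with Saline 1 alone left out 0.679, so that its sign rested on CPPE 2. *Dbp* with *Nr1d1*, both E-box targets, had an r of 0.343, and *Arntl* with *Clock*, which encode the partners of one dimer, 0.162. *Nr1d1* with *Arntl*, repressor and target, had an r of -0.280. Over all 9 rats r was 0.930 for *Per2* with *Clock*, -0.921 for *Dbp* with *Clock* and -0.890 for *Per2* with *Dbp*. Without Saline 2 these pairs had -0.173, -0.411 and -0.198, so that the values over 9 rats rested on that library. For deviations from the group means over the same 8 rats, r was -0.778 for *Per2* with *Dbp* and 0.811 for *Nr1d1* with *Clock*, values given with no test.

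**Figure D5:**
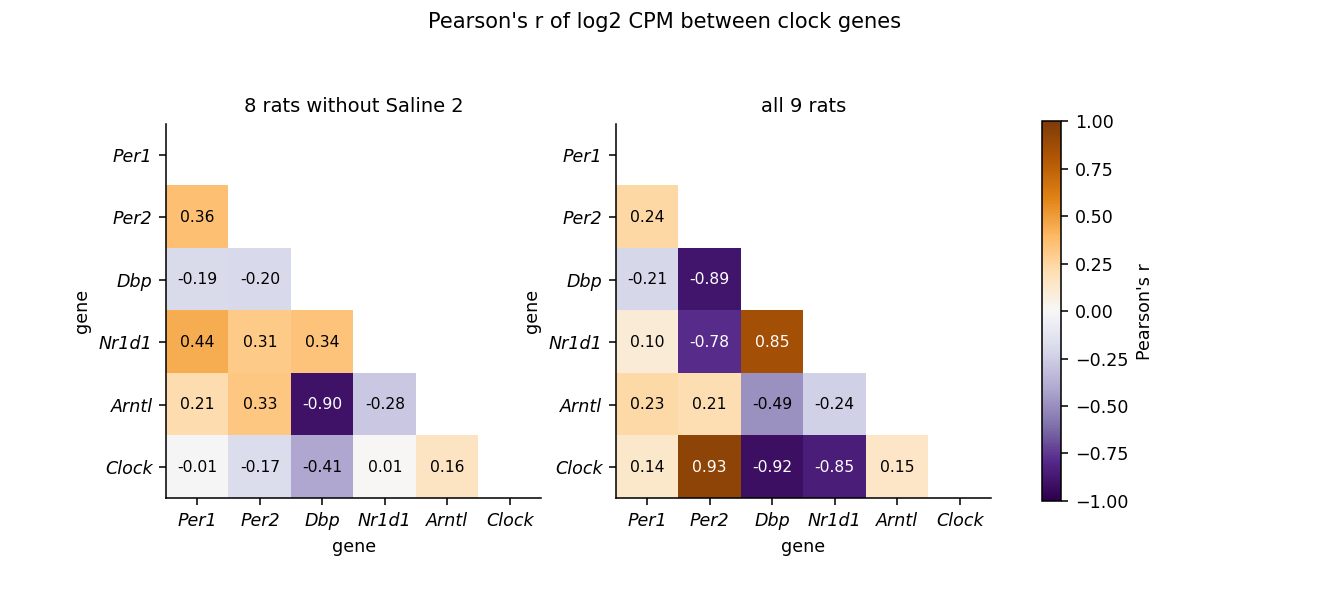
Pearson's r of log2 CPM for the 15 pairs of clock genes, over the 8 rats without Saline 2 (left) and over all 9 rats (right); colour runs from -1 to 1. On the left *Dbp* with *Arntl* stands at -0.90, and on the right *Per2*, *Dbp*, *Nr1d1* and *Clock* have r of large size in either direction with each other.

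The gene most like *Dbp* over the 8 rats, of 13761 genes searched, was ENSRNOG00000007023, with an r of 0.989, a rho of 1.00 and an r of 0.984 with Saline 2 included. Its level was 10.2 to 12.1 CPM in the 8 rats and 20.0 CPM in Saline 2, so that it was high in the same library as *Dbp*. The gene most like *Per1* was ENSRNOG00000048243, with an r of 0.975, a rho of 0.690 and an r of 0.558 over all 9 rats. These genes were picked as the highest of many and carry no test.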

How the data were processed

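RNA of 9 rats was sequenced as 4 technical replicates each. Per the labels' protocols, polyadenylated RNA from 300 ng of total RNA was made into libraries with a strand-specific kit. Per the submitters' processing notes, the authors used bcl2fastq 2.18.0.12, STAR and HTSeq 0.5.3. For the STAR version, genome build, annotation and strand setting the answer is not given in the sources used here, so overlapping genes carry uncertain counts. Each deposited file lists whole-number counts by Ensembl identifier for 1 technical replicate, with no normalization. Technical replicates were summed per rat. edgeR 4.0.16 in R 4.3.3 (filterByExpr, TMM, glmQLFit, glmQLFTest, group as the sole factor, all 9 rats) gave log2 differences and p-values. The p-values had Benjamini-Hochberg adjustment over 15555 genes, with a threshold of 0.05. Standard errors were derived as the size of the log2 difference divided by the square root of the F statistic. The 95% intervals were derived from these with the t distribution. Log2 CPM used a prior count of 2. Alternatives were DESeq2 1.42.0, limma-voom (limma 3.58.1) with quality weights, RLE scaling, other filters, fits of the compared groups alone, a replicate block and leaving out each rat. The edgeR and permutation procedures were tested on simulated data. The clock genes, named in full by rule, and the tests were chosen with earlier results of these data known. Lists of other clock genes and of cell type markers were not tested, because 0 identifiers could be paired with a symbol by a table. Without names, the most similar gene was given by identifier for *Per1* and *Dbp* only, by rule. No protein table was used, so proteins were not compared. The labels do not say whether the rats were handled in batches. The p-values of the group comparisons set a difference against the spread between these rats.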

Additional observations from a re-analysis of the deposited data

Results flagged for a closer look

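*Per1* in CPPE 2 lay far from the other cocaine rats. It was at 130.5 CPM, beside 97.8 to 101 CPM in the others, and its distance to the next rat was 0.893 of the range of all 6. The 4 technical replicates of CPPE 2 held 1218 to 1330 counts of *Per1*, or 128 to 135 CPM, so each of them was high. CPPE 2 also had the most *Per2* (68.0 CPM) and the largest library (39067715 counts). In all, 7 measures were examined among the 6 cocaine rats, and chance marks about 1 in 20 such groups.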

How the results depend on the processing

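No clock gene was called under any alternative that was run. Of 162 log2 differences of clock genes under other tools, scalings and filters, 150 kept their direction and 12 reversed, all with limma-voom. These were -0.01 for *Arntl* in CPPE against nCPPE. In CPPE against Saline they were -0.03 for *Per1*, 0.29 for *Dbp*, 0.19 for *Nr1d1* and -0.14 for *Clock*. In nCPPE against Saline they were 0.32 for *Dbp*, 0.01 for *Nr1d1* and -0.10 for *Clock*, and for all cocaine rats -0.05 for *Per1*, 0.31 for *Dbp*, 0.10 for *Nr1d1* and -0.12 for *Clock*. DESeq2 called 1 gene in CPPE against nCPPE, 1 in nCPPE against Saline and 1 in cocaine against Saline, where edgeR called 0. The cause was not tested. Of 216 differences with 1 rat left out, 18 reversed, 9 of them without Saline 2. For the genes concerned the range was -0.02 to 0.20 for *Per1*, -0.13 to 0.01 for *Dbp*, -0.04 to 0.07 for *Arntl* and -0.08 to 0.01 for *Clock* in CPPE against nCPPE, -0.06 to 0.21 for *Per1*, -0.50 to 0.28 for *Dbp*, -0.22 to 0.21 for *Nr1d1* and -0.15 to 0.39 for *Clock* in CPPE against Saline, -0.11 to 0.08 for *Per1*, -0.43 to 0.35 for *Dbp*, -0.42 to 0.01 for *Nr1d1* and -0.13 to 0.41 for *Clock* in nCPPE against Saline, and -0.05 to 0.15 for *Per1*, -0.46 to 0.32 for *Dbp*, -0.32 to 0.11 for *Nr1d1* and -0.14 to 0.40 for *Clock* in cocaine against Saline. Without Saline 2 the clock genes free of overlap went from 0 to 4, 3 and 3 in the comparisons of CPPE, nCPPE and all cocaine rats with Saline, while the share over all tested genes went from 5.72% to 25.3%, from 4.02% to 24.8% and from 1.03% to 11.4%, an alternative chosen after seeing the data. Without *Arntl* the output-to-activator difference was -0.17 in CPPE and -0.28 in nCPPE, since *Clock* alone then stands for the activators. The fit of the compared groups alone was not run for cocaine against Saline, where it is the same fit.

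Of 15 pairs of clock genes, 1 passed the threshold over 8 rats, 0 over all 9 rats, 0 without the rats farthest from the median and 0 to 1 with 1 rat left out. Without the farthest rats r turned to -0.49 for *Per1* with *Per2*, 0.80 for *Per1* with *Dbp*, -0.53 for *Per1* with *Arntl*, 0.39 for *Per2* with *Dbp*, -0.05 for *Per2* with *Nr1d1*, -0.43 for *Per2* with *Arntl*, -0.01 for *Dbp* with *Nr1d1*, 0.48 for *Dbp* with *Clock* and -0.79 for *Nr1d1* with *Clock*. Over all 9 rats it turned to 0.14 for *Per1* with *Clock*, -0.78 for *Per2* with *Nr1d1*, 0.93 for *Per2* with *Clock* and -0.85 for *Nr1d1* with *Clock*. For deviations from group means it turned to 0.05 for *Per1* with *Clock*, -0.21 for *Per2* with *Nr1d1*, 0.10 for *Per2* with *Clock*, 0.45 for *Dbp* with *Clock* and -0.45 for *Arntl* with *Clock*. With 1 rat left out r ranged from -0.67 to 0.68 for *Per1* with *Per2*, -0.69 to 0.00 for *Per1* with *Dbp*, -0.25 to 0.26 for *Per1* with *Clock*, -0.52 to 0.16 for *Per2* with *Dbp*, -0.08 to 0.41 for *Per2* with *Nr1d1*, -0.22 to 0.63 for *Per2* with *Arntl*, -0.36 to 0.04 for *Per2* with *Clock*, -0.81 to 0.32 for *Nr1d1* with *Clock* and -0.03 to 0.58 for *Arntl* with *Clock*.

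Replicate numbers are shared between groups in the labels. Deviations of same-numbered rats had r of -0.447 to 0.257 over 9 pairs, 2 of them over 0.1. Those of rats with other numbers had r of -0.330 to 0.357 over 18 pairs, 4 of them over 0.1. The labels do not state a pairing, and the numbers were not taken as one. With the replicate number as a block, edgeR called 0 genes in all 4 comparisons, as it did without the block, and 64, 123, 130 and 162 genes had an unadjusted p below 0.05. The 95% interval of *Dbp* in CPPE against Saline ran from -0.99 to 0.45 with all rats and from 0.08 to 0.49 without Saline 2.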
